A study of Mus musculus with 9 samples.

Results

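The receptor chains through which myeloid progenitors take up the colony-stimulating factors and IL-3 were read in FDCPmix cells, a mouse multipotent hematopoietic progenitor line. The members were all probes whose accession belongs to Csf1r, Csf2ra, Csf2rb, Csf2rb2, Csf3r or Il3ra, which gave 9 of 41174 probes for 6 genes: 3 for Csf1r (A_51_P365885, A_52_P602091 and A_52_P570471, called probes 1, 2 and 3 by falling brightness), 2 for Csf2rb (A_52_P664853 and A_52_P492939, probes 1 and 2) and 1 each for Csf2ra (A_51_P341465), Csf2rb2 (A_51_P146753), Csf3r (A_51_P515639) and Il3ra (A_51_P432651). All 9 were well above background on all 9 arrays, and all were tested. Levels of different probes are not compared, since probes differ in how strongly they bind.

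Cells kept under self-renewal conditions were transduced with Lentilox 3.7 lentivirus that carried an shRNA (a short hairpin RNA that directs the decay of a chosen transcript) against Gata2 (shGata2 LLX, here Gata2 KD) or against Pu.1 (shPu1 LLX, here Pu.1 KD), or with the empty vector (EV). All 3 groups therefore shared the cell line, the viral backbone, its GFP marker and the culture. The EV cells received no shRNA, so effects of carrying an shRNA, or of its acting on other transcripts, were not tested apart from each knockdown. Viable GFP+ cells were sorted 5 days later, and total RNA from 3 samples per group was hybridized to 9 one-color Agilent arrays. The methods describe triplicate samples that were transduced, and do not say whether they came from separately grown cultures, so p-values measure the spread between these samples, part of which may be technical.

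These receptors fall into separate families that meet in the same signaling routes. Csf1r encodes a receptor tyrosine kinase that binds CSF1 and IL-34 and supports monocytes and macrophages, and Csf3r encodes the G-CSF receptor, which pairs with itself and supports neutrophils. GM-CSF and IL-3 each bind an alpha chain of their own, encoded by Csf2ra and Il3ra, which then joins a beta chain that carries the signal to the Janus kinase JAK2 and the factor STAT5. The beta chain encoded by Csf2rb serves GM-CSF, IL-3 and IL-5, whereas the chain encoded by Csf2rb2, found in mice, pairs with the IL-3 alpha chain.

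Between 80.4% and 89.6% of spots were well above background on each array, no spot was saturated, and the number of arrays limits the precision. Each level is a log2 intensity from which the array's own 75th percentile was taken away, and a call means an adjusted p under 0.05 in limma over 36585 probes. Each of 3 slides held 1 array of every group, and the first principal component (36.5% of the variance) lay mostly between slides. The changes of the member probes in Gata2 KD against EV are therefore also given within slides, as are some of those in Pu.1 KD. EV replicate 3 had the lowest mean correlation with the other arrays, 0.960. The targeted genes followed the labels: Gata2 was lower by 1.61 ± 0.23 (SE, limma, adjusted p = 0.00414) in Gata2 KD, and Spi1, which encodes PU.1, fell by 1.73 ± 0.16 in Pu.1 KD (limma, adjusted p = 0.00178). Spi1 was also higher by 1.39 in Gata2 KD than in EV (limma, adjusted p = 0.00120).

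The promoters of Csf2ra and Csf3r, which were higher after Gata2 knockdown, and of Csf2rb2, which was lower, are printed here because GATA2 and PU.1 bind DNA through short motifs. The sequences are RefSeq windows of 300 bases around the annotated gene start in GRCm38.p6, written along the gene's own strand. Capitals mark GGAAG, the core read by ETS factors such as PU.1, and GATAA, the core read by GATA factors, on either strand, where the reverse strand reads CTTCC and TTATC. The windows lie at chr19:61228369-61228668 (minus strand) for Csf2ra, at chr4:126024409-126024708 (plus strand) for Csf3r and at chr15:78305672-78305971 (minus strand) for Csf2rb2. The promoters of Csf1r and Csf2rb are not used here.
Csf2ra: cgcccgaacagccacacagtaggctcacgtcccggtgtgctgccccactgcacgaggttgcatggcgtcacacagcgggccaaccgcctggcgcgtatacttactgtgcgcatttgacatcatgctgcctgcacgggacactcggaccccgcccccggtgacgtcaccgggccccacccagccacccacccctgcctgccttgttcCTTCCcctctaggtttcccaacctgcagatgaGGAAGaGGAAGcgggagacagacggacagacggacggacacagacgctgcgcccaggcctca
Csf3r: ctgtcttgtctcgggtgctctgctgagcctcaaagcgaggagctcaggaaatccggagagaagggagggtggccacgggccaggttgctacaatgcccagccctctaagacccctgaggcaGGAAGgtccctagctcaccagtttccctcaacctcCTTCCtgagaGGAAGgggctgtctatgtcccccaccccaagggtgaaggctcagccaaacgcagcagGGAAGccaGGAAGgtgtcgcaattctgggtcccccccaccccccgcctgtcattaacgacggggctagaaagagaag
Csf2rb2: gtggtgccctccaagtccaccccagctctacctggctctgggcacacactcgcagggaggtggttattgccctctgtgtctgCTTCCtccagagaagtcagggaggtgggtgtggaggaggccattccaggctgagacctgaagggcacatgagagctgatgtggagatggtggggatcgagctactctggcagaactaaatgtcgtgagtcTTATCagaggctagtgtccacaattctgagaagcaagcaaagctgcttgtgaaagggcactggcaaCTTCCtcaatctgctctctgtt

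GGAAG was present 3 times in the Csf2ra window, 5 times in that of Csf3r, 2 times in that of Csf2rb2 and 1 time in that of Il3ra, and 71.4% of all 32851 windows of this length hold it. GATAA was present 1 time in the Csf2rb2 window, on the reverse strand 38 bases upstream of the start (position -38), and was not among the letters of the windows of Csf2ra, Csf3r and Il3ra, while 25.4% of all windows hold it. The longer words GGAAGTG (in 11.0% of all windows, and containing GGAAG) and AGATAAG (in 3.04%, and containing GATAA) were in none of these 4 windows. The GATAA site of the Csf2rb2 window reads TGATAAG on the reverse strand. It differs from AGATAAG in its first letter and matches WGATAAG (W is A or T), a wider form that the paper also uses. How many of all windows hold that wider form was not counted. A match is a description of the letters only, and binding was not measured on these arrays. The paper mapped GATA2 and PU.1 binding in multipotent FDCPmix cells by ChIP-seq (sequencing of the DNA bound to a factor), and those data are not used here.

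After knockdown of Gata2, Csf1r by 2 of its 3 probes, Csf2ra and Csf3r rose between 5.93-fold and 23.0-fold against EV, and Csf2rb2 fell 1.90-fold. Csf2rb and Il3ra did not pass the test. In probes, 4 of 9 were called higher and 1 lower, where 2.96% of all tested probes were called higher and 2.24% lower. The groups did not overlap for 5 of the 9 probes, against 18.6% of all probes. The median change of the 9 probes was 0.53 on the log2 scale, beside -0.09 over all tested probes. Csf1r, Csf2ra and Csf3r are among the genes that the study itself named from these samples, so their direction is not independent evidence. In a bulk sample, fewer cells of a type and less RNA per cell cannot be told apart.

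**Figure D1:**
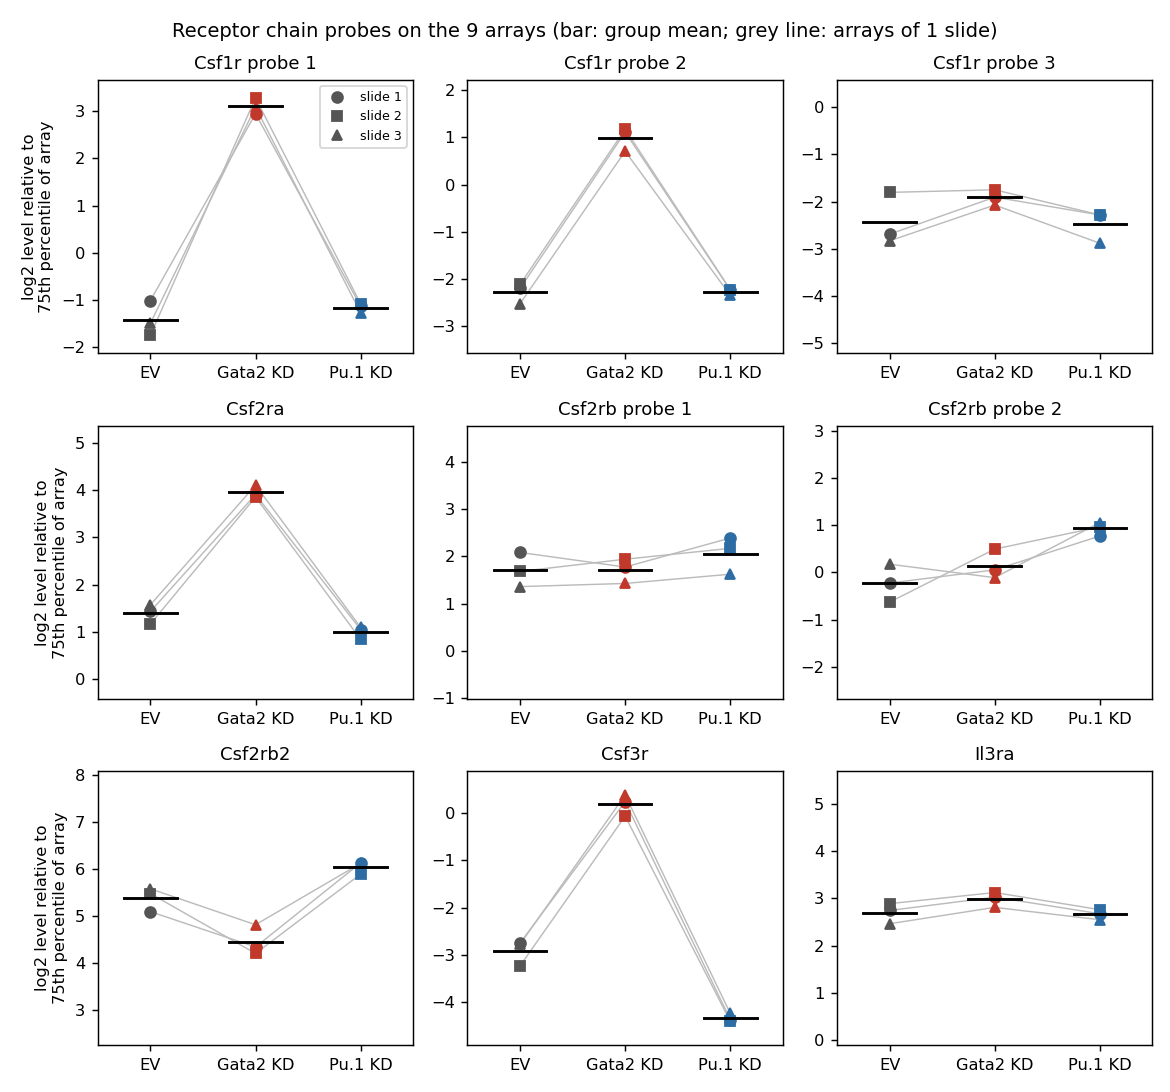
Log2 level of each receptor chain probe relative to the 75th percentile of its array (y axis, each panel centred on its own values, all with the same span) on the 3 EV, 3 Gata2 KD and 3 Pu.1 KD arrays (x axis). Points are arrays, with the marker giving the slide, bars are group means and grey lines join the arrays of 1 slide; Csf1r probe 1 lay between 2.95 and 3.28 in Gata2 KD and at -1.01 or lower in the other groups, while Il3ra lay between 2.46 and 3.13 throughout.

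Csf1r probe 1 read -1.01, -1.49 and -1.75 in EV replicates 1 to 3, 3.09, 3.28 and 2.95 in Gata2 KD, and -1.08, -1.28 and -1.13 in Pu.1 KD. Every Gata2 KD array lay above every other array, and the EV and Pu.1 KD arrays overlapped. The processed intensities behind these levels ran from 145 to 291 in EV, from 3737 to 4548 in Gata2 KD and from 205 to 221 in Pu.1 KD. Probe 1 was higher by 4.52 ± 0.20 (SE) in Gata2 KD than in EV (23.0-fold, 95% interval 16.7 to 31.7, limma, adjusted p = 1.26e-05) and by 3.96 to 5.03 within slides, a change above that of 99.9% of tested probes. In Pu.1 KD it differed from EV by 0.25 (95% interval -0.21 to 0.71, limma, adjusted p = 0.812).

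Csf1r probe 2 read -2.20, -2.53 and -2.12 in EV, 0.71, 1.17 and 1.11 in Gata2 KD, and -2.23, -2.35 and -2.23 in Pu.1 KD. Here too the Gata2 KD arrays stood above the rest with no overlap, and EV and Pu.1 KD lay together. The rise over EV was 3.28 ± 0.17 (9.71-fold, 95% interval 7.35 to 12.8, limma, adjusted p = 2.76e-05), with 3.23 to 3.31 within slides. The difference between Pu.1 KD and EV was 0.01 (95% interval -0.39 to 0.41, limma, adjusted p = 1.00).

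Csf1r probe 3 read -2.69, -2.83 and -1.81 in EV, -2.07, -1.75 and -1.91 in Gata2 KD, and -2.28, -2.88 and -2.28 in Pu.1 KD. EV replicate 3 alone reached the range of the Gata2 KD arrays. The probe differed from EV by 0.53 ± 0.29 in Gata2 KD (95% interval -0.14 to 1.2, limma, adjusted p = 0.513), 0.05 to 0.78 within slides, and by -0.04 in Pu.1 KD (95% interval -0.71 to 0.63, limma, adjusted p = 1.00). Its intensities, 67.4 to 144 over the 9 arrays, moved little where those of the other Csf1r probes moved most.

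The 3 Csf1r probes thus gave the same gene unequal changes. The difference between probes 1 and 3 within an array has no meaning as a level, but it shifted by 3.99 from EV (SD 0.85 over 3 arrays) to Gata2 KD (SD 0.15) (two-sided exact permutation test, p = 0.1). The shift of probe 1 against probe 2 was 1.25 and that of probe 2 against probe 3 was 2.75 (two-sided exact permutation test, p = 0.1 for each). With 3 arrays against 3, 0.1 is the smallest p that this test allows, and 0.21 was the smallest after adjustment over the 21 within-array tests made. Which transcripts each probe reads was not tested, as probe sequences are not used here.

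Csf2ra, the alpha chain of the GM-CSF receptor, read 1.43, 1.57 and 1.16 in EV, 4.11, 3.86 and 3.91 in Gata2 KD, and 0.84, 1.09 and 1.05 in Pu.1 KD. The 3 groups did not overlap at all, with Gata2 KD highest and Pu.1 KD lowest. Csf2ra rose by 2.57 ± 0.16 in Gata2 KD (5.93-fold, 95% interval 4.62 to 7.62, limma, adjusted p = 4.74e-05), by 2.48 to 2.69 within slides. In Pu.1 KD it was 0.40 ± 0.16 below EV (change -0.40, 95% interval -0.76 to -0.04), lower on all 3 slides but not called (limma, adjusted p = 0.331).

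Il3ra, the alpha chain of the IL-3 receptor, read 2.75, 2.46 and 2.89 in EV, 2.81, 3.13 and 3.03 in Gata2 KD, and 2.76, 2.55 and 2.68 in Pu.1 KD. All 9 values lay between 2.46 and 3.13, and both knockdowns overlapped EV. The change was 0.29 ± 0.16 in Gata2 KD (95% interval -0.08 to 0.66, limma, adjusted p = 0.521), positive on all 3 slides (0.24 to 0.35), and -0.04 in Pu.1 KD (95% interval -0.40 to 0.33, limma, adjusted p = 1.00). Within arrays the level of 1 alpha chain moved against the other: Csf2ra relative to Il3ra shifted by 2.28 between EV (SD 0.42 over 3 arrays) and Gata2 KD (SD 0.29), with no overlap (two-sided exact permutation test, p = 0.1, the smallest possible). In Pu.1 KD it shifted by -0.36 from EV and overlapped it (two-sided exact permutation test, p = 0.3).

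Csf3r, the G-CSF receptor, read -2.75, -2.78 and -3.23 in EV, 0.39, -0.06 and 0.25 in Gata2 KD, and -4.41, -4.24 and -4.37 in Pu.1 KD. The 3 groups were fully apart, Gata2 KD above EV and EV above Pu.1 KD. Csf3r rose by 3.11 ± 0.18 in Gata2 KD (8.65-fold, 95% interval 6.46 to 11.6, limma, adjusted p = 4.01e-05), with 3.0 to 3.17 within slides. In Pu.1 KD it fell by 1.42 ± 0.18 (2.68-fold lower, limma, adjusted p = 0.00765), with -1.62 to -1.17 within slides.

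Csf3r was the member called in both knockdowns, in opposite directions. Its probe was dim in Pu.1 KD, at intensities of 21.9 to 26.3, against 51.8 to 87.2 in EV and 448 to 640 in Gata2 KD. The size of the fall depended on the processing. From the median signal after normexp correction with an offset of 50, the change was -0.53 and not called (limma, adjusted p = 0.0685), and the rise in Gata2 KD became 2.31 and was called. With the deposited values the fall was -0.80 and called (limma, adjusted p = 0.0416), and which of these steps moved it was not tested. Quantile normalization (-1.21, limma, adjusted p = 0.111) and scaling to the median (-1.38, limma, adjusted p = 0.0523) also ended the call in Pu.1 KD.

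Csf2rb2, the IL-3 beta chain, read 5.09, 5.58 and 5.48 in EV, 4.82, 4.21 and 4.35 in Gata2 KD, and 5.89, 6.12 and 6.13 in Pu.1 KD. The order was Pu.1 KD, EV and Gata2 KD with no overlap, opposite to that of Csf2ra and Csf3r. Csf2rb2 fell by 0.93 ± 0.20 in Gata2 KD (1.90-fold lower, 95% interval of the change -1.40 to -0.46, limma, adjusted p = 0.0380), and was lower on every slide (-1.27 to -0.75). It was 0.66 ± 0.20 higher in Pu.1 KD than in EV, on all 3 slides (0.41 to 1.04), without passing the test (limma, adjusted p = 0.175).

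The call of Csf2rb2 in Gata2 KD was close to the threshold. It was lost in 7 of the 9 fits that left out 1 array, with an adjusted p (limma) of 0.130 and 0.105 without EV replicates 2 and 3, 0.167 and 0.144 without Gata2 KD replicates 2 and 3, and 0.0672, 0.0659 and 0.0714 without Pu.1 KD replicates 1, 2 and 3. It was also lost with scaling to the median (0.218), without a filter on dim probes (0.0524) and with only the EV and Gata2 KD arrays in the fit (0.129). In all, the call was lost in 11 of 20 alternatives, the replicate number as a block (limma, adjusted p = 0.127) among them, and kept in 9. Those that kept it included slide as a block (limma, adjusted p = 0.0195) and the deposited values (0.0087). The change stayed between -1.11 and -0.80 under every alternative run.

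Csf2rb probe 1, for the shared beta chain, read 2.08, 1.36 and 1.68 in EV, 1.43, 1.94 and 1.77 in Gata2 KD, and 2.17, 1.62 and 2.39 in Pu.1 KD. The groups overlapped, and the lowest array of each group was the one on the same slide. The change was 0.01 ± 0.26 in Gata2 KD (95% interval -0.60 to 0.61, limma, adjusted p = 0.999) and 0.35 in Pu.1 KD (95% interval -0.25 to 0.96, limma, adjusted p = 0.783). Within slides the change in Gata2 KD ran from -0.31 to 0.26. In Pu.1 KD the probe was higher than EV on all 3 slides, by 0.26 to 0.49.

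Csf2rb probe 2 read -0.22, 0.18 and -0.63 in EV, -0.11, 0.50 and 0.06 in Gata2 KD, and 0.97, 1.06 and 0.77 in Pu.1 KD. The Pu.1 KD arrays lay above both other groups, which overlapped each other. The probe rose by 1.16 ± 0.24 in Pu.1 KD (2.23-fold, 95% interval 1.53 to 3.27, limma, adjusted p = 0.0462), by 0.88 to 1.6 within slides, and differed by 0.37 in Gata2 KD (95% interval -0.18 to 0.92, limma, adjusted p = 0.626). Its change in Gata2 KD ran from -0.29 to 1.12 within slides. The call in Pu.1 KD was lost with slide as a block (limma, adjusted p = 0.0550), with scaling to the median (0.141), without the filter on dim probes (0.0643), with only EV and Pu.1 KD in the fit (0.115) and in 8 of the 9 fits that left out 1 array. Those 8 had an adjusted p of 0.123 and 0.103 without EV replicates 1 and 3, 0.0606, 0.0601 and 0.0883 without Gata2 KD replicates 1 to 3, and 0.175, 0.170 and 0.116 without Pu.1 KD replicates 1 to 3.

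Csf2rb and Csf2rb2 are close copies that lie side by side on chromosome 15 of GRCm38.p6, with 0 protein-coding genes between them in the RefSeq table, so a probe for either may bind RNA of the other. Whether it did was not tested. Within arrays, Csf2rb2 relative to Csf2rb probe 2 shifted by -1.30 between EV and Gata2 KD with no overlap (two-sided exact permutation test, p = 0.1), and relative to Csf2rb probe 1 by -0.93 with overlap (p = 0.2 in the same exact test). The difference between the chains thus separated Gata2 KD from EV by 1 Csf2rb probe and overlapped by the other, in a test that could not go below 0.1. The difference between the Csf2rb probes themselves did not separate any pair of groups (two-sided exact permutation test, p from 0.3 to 0.4).

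**Figure D2:**
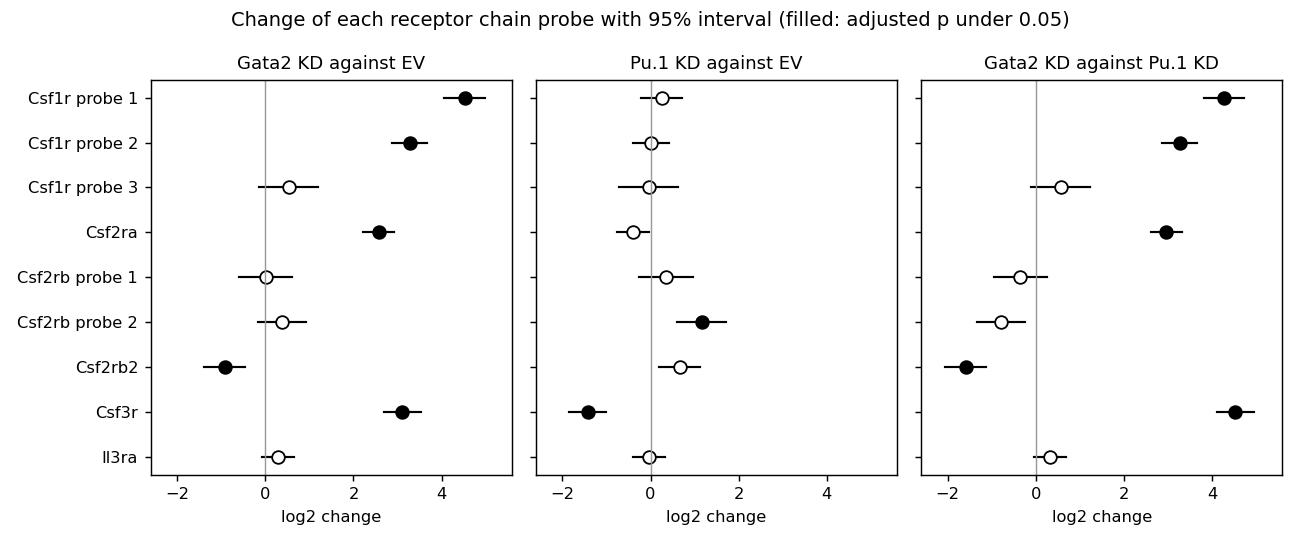
Log2 change (x axis) of each receptor chain probe (y axis) with its 95% interval from limma, with 1 panel for each knockdown against EV and 1 for Gata2 KD against Pu.1 KD. Filled points passed an adjusted p of 0.05; in Gata2 KD against EV they run from 4.52 for Csf1r probe 1 to -0.93 for Csf2rb2.

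After knockdown of Pu.1, of the 9 probes, Csf2rb probe 2 was called higher and Csf3r lower, where 1.27% of all tested probes were called higher and 1.42% lower. For 4 of the 9 probes the Pu.1 KD arrays stood apart from EV without overlap, Csf2ra and Csf3r below it and Csf2rb probe 2 and Csf2rb2 above it, against 17.3% of all probes without overlap. The median change of the 9 probes was 0.01, beside -0.04 over all tested probes. Both comparisons share the EV arrays, so their values are not independent of each other.

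The plot of changes with their intervals sets the knockdowns against each other directly. Between Gata2 KD and Pu.1 KD, 4 probes were called higher and 1 lower, where 4.86% of all tested probes were called higher and 4.77% lower. The groups did not overlap for 8 of the 9 probes, against 25.8% of all probes. Csf3r differed by 4.53 ± 0.18 (23.1-fold, limma, adjusted p = 3.61e-06) and Csf1r probe 1 by 4.27 (19.3-fold, limma, adjusted p = 5.73e-06). Their order depended on the processing: Csf3r was at 2.83 and Csf1r probe 1 at 3.97 with normexp, and at 3.36 and 4.07 with the deposited values, all called. Csf1r probe 2 differed by 3.27 (9.62-fold, limma, adjusted p = 1.04e-05) and Csf2ra by 2.97 (7.82-fold, limma, adjusted p = 9.81e-06).

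Csf2rb2 was the member that was lower in Gata2 KD, by 1.59 ± 0.20 on the log2 scale (change -1.59 against Pu.1 KD, 3.01-fold lower, limma, adjusted p = 0.00149). Csf2rb probe 2 lay on the same side without passing the test (-0.79, limma, adjusted p = 0.0896), and its arrays did not overlap. Csf1r probe 3 (0.57, limma, adjusted p = 0.382) and Il3ra (0.33, limma, adjusted p = 0.353) lay higher in every Gata2 KD array than in every Pu.1 KD array, and neither was called. Csf2rb probe 1 overlapped (-0.35, limma, adjusted p = 0.690).

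The genes around the receptors were read from 5 lists of ligands, related receptors, Janus kinases and STAT factors, proximal kinases and adaptors, and negative regulators. Of 53 listed genes 52 were tested, each by its brightest probe. In Gata2 KD 11 were called higher and 5 lower, where 4.21% of 15808 named genes were called higher and 2.95% lower. In Pu.1 KD 6 were called higher and 4 lower, where 1.45% of named genes were called higher and 2.16% lower. The median change over the lists was 0.10 in Gata2 KD and 0.04 in Pu.1 KD, beside -0.09 and -0.04 over all named genes.

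**Figure D3:**
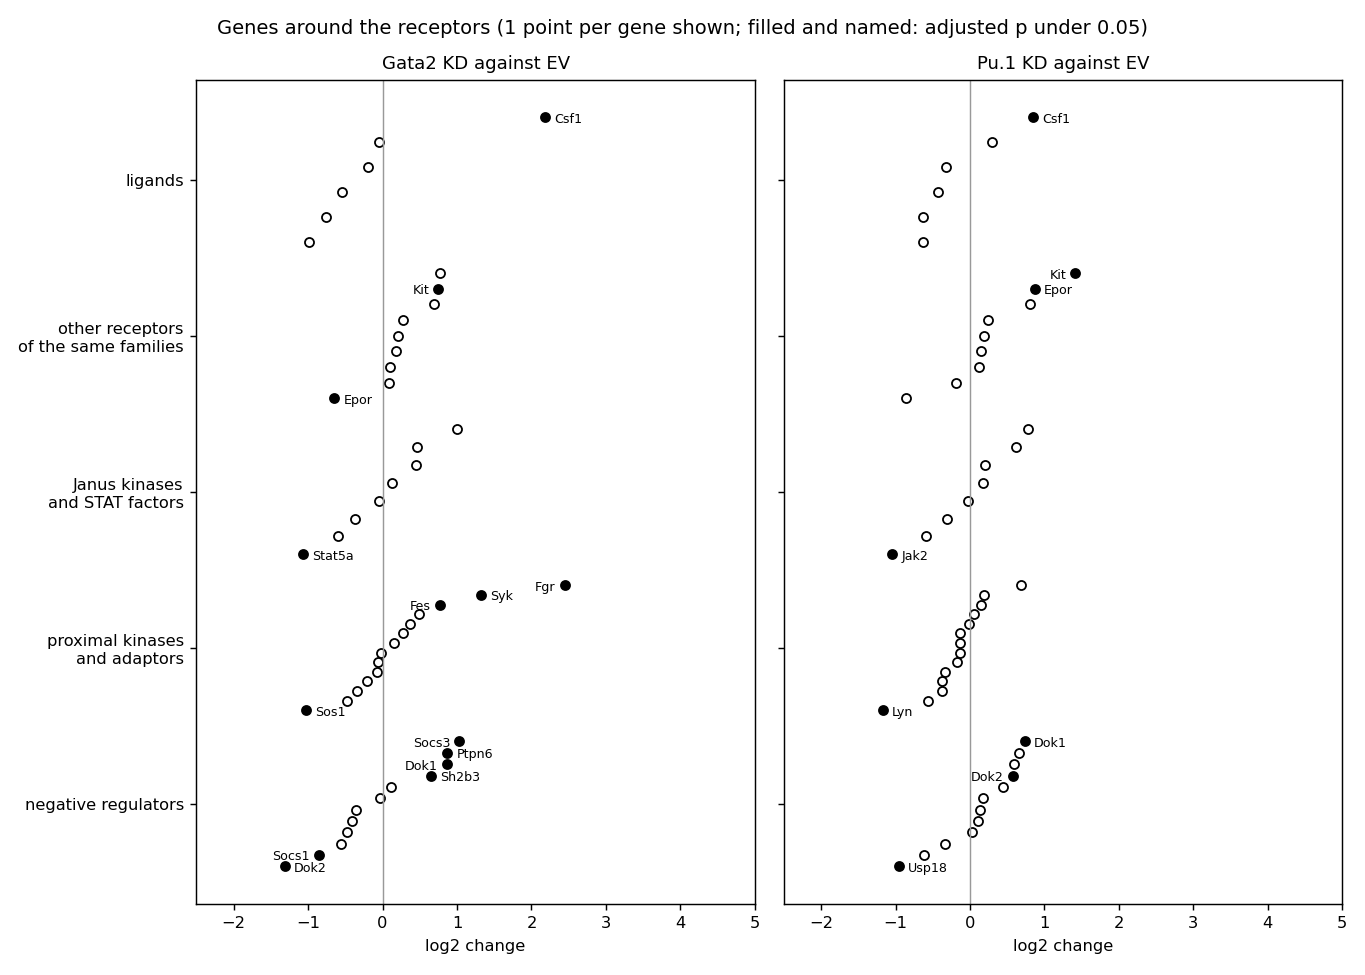
Log2 change (x axis) of genes in each of the 5 lists (y axis) for Gata2 KD and Pu.1 KD against EV, with 1 point per gene in order of its change. Filled and named points passed an adjusted p of 0.05, and genes not reported here are not drawn; Fgr lies at 2.45 and Csf1 at 2.18 in Gata2 KD.

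Among the 6 ligands, Csf1, which encodes the main ligand of Csf1r, was called. Csf1 stood at -1.39 ± 0.07 in EV, 0.79 ± 0.06 in Gata2 KD and -0.54 ± 0.04 in Pu.1 KD (SD, n = 3). It rose by 2.18 in Gata2 KD (limma, adjusted p = 2.76e-05) and by 0.85 in Pu.1 KD (limma, adjusted p = 0.00941). Il34, Csf2, Csf3, Il3 and Il5 did not pass the test in either knockdown, with changes from -0.99 to 0.30. The probes of Csf2, Csf3, Il3 and Il5 were dim, with group means between -5.62 and -4.01. Their SD in EV ran from 0.74 to 1.23, and Csf3 was well above background on 5 of 9 arrays. A change of these 4 ligands could therefore have been missed.

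Among 10 other receptors of these families, Kit, the receptor of stem cell factor, rose in both knockdowns, by 0.75 in Gata2 KD (limma, adjusted p = 0.0241) and by 1.41 in Pu.1 KD (limma, adjusted p = 0.00332). Epor, the erythropoietin receptor, fell by 0.65 in Gata2 KD (limma, adjusted p = 0.0353) and rose by 0.87 in Pu.1 KD (limma, adjusted p = 0.0165).

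Of 9 Janus kinases and STAT factors, Stat5a fell by 1.07 in Gata2 KD (limma, adjusted p = 0.00382) and differed by -0.03 in Pu.1 KD (limma, adjusted p = 1.00). Jak2, the kinase that the beta chains engage, fell by 1.04 in Pu.1 KD (limma, adjusted p = 0.0125) and differed by 0.12 in Gata2 KD (limma, adjusted p = 0.912). Stat5b, a close relative of Stat5a, did not pass in either knockdown (-0.38 in Gata2 KD and 0.17 in Pu.1 KD).

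Of 15 proximal kinases and adaptors, 4 rose and 1 fell in Gata2 KD. Fgr, a Src family kinase of myeloid cells, rose by 2.45 (limma, adjusted p = 0.000677). Syk, a kinase that reads phosphorylated adaptors, rose by 1.33 (limma, adjusted p = 0.0102), and the exchange factor Sos1 fell by 1.03 (limma, adjusted p = 0.00420). In Pu.1 KD, Lyn, another Src family kinase, fell by 1.17 (limma, adjusted p = 0.0276).

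Of 12 tested negative regulators, 4 rose and 2 fell in Gata2 KD. Socs3, an inhibitor of cytokine receptors that also acts on the G-CSF receptor, rose by 1.03 (limma, adjusted p = 0.00955), and the phosphatase gene Ptpn6 rose by 0.87 (limma, adjusted p = 0.0247). The docking proteins split, with Dok1 higher by 0.87 (limma, adjusted p = 0.00925) and Dok2 lower (change -1.32, limma, adjusted p = 0.000349). In Pu.1 KD Dok1 rose by 0.74 (limma, adjusted p = 0.0342), Dok2 rose by 0.57 (limma, adjusted p = 0.0443) and Usp18, which dampens interferon receptor signaling, fell by 0.96 (limma, adjusted p = 0.0182).

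Markers of blood cells were read by cell type, and some of these lists moved with the groups while others did not. All 10 neutrophil markers were called higher in Gata2 KD and 8 of 10 lower in Pu.1 KD, and their summed level, in multiples of each array's 75th percentile, ran from 240.5 to 269.9 in EV, from 1126 to 1341 in Gata2 KD and from 105.7 to 124.8 in Pu.1 KD. Of 10 monocyte and macrophage markers 7 were tested, 4 of them higher in Gata2 KD and 1 lower in Pu.1 KD, with sums of 4.03 to 4.42, 19.3 to 22.9 and 2.35 to 2.89. Csf1r probes 1 and 2, Csf2ra and Csf3r stood highest in the group where both of these sums were highest. Csf3r, Csf2ra (not called there) and both sums were lowest in Pu.1 KD, while Csf1r probes 1 and 2 overlapped between Pu.1 KD and EV.

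**Figure D4:**
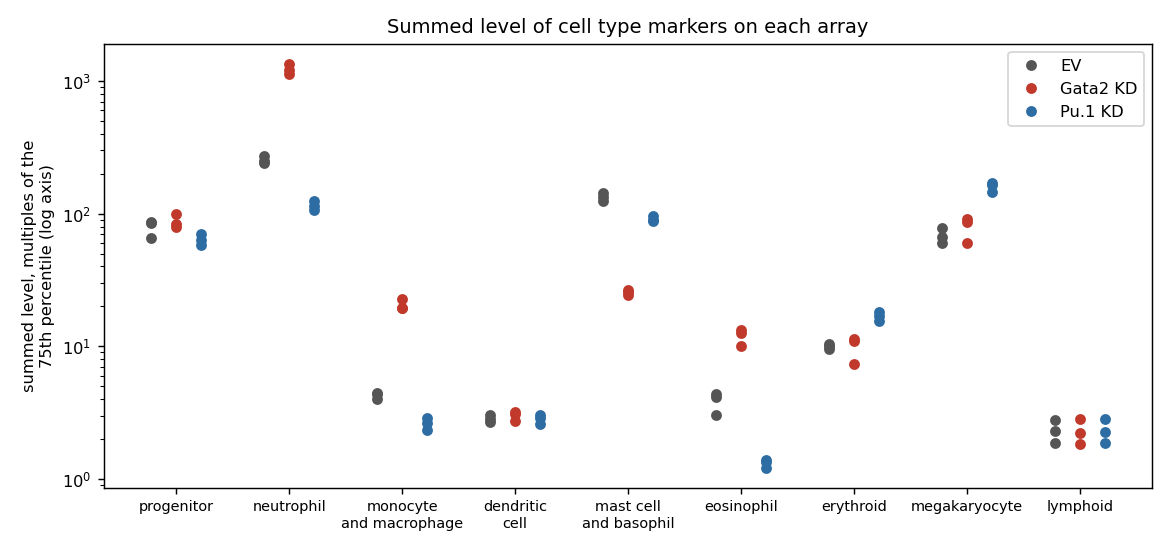
Summed level of each cell type marker list (x axis) on each array, in multiples of the array's 75th percentile (y axis, log scale), for EV, Gata2 KD and Pu.1 KD. Each point is 1 array; the neutrophil sums lie at 1126 or more in Gata2 KD and at 124.8 or less in Pu.1 KD, and the mast cell and basophil sums at 26.4 or less in Gata2 KD.

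Csf2rb2 stood lowest in Gata2 KD, where the mast cell and basophil markers were also lowest, with 6 of 8 called lower and sums of 24.3 to 26.4 against 125.4 to 144.2 in EV. In Pu.1 KD, where Csf2rb2 was highest, 3 of those 8 were called lower and the sums were 87.4 to 95.9. Among eosinophil markers 2 of 5 were higher in Gata2 KD and 2 of 5 lower in Pu.1 KD, with sums of 3.03 to 4.36 in EV, 10.06 to 13.17 in Gata2 KD and 1.22 to 1.38 in Pu.1 KD. The part of any of these lists in the changes of the receptor chains was not tested.

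Of 8 progenitor markers 3 were higher and 2 lower in Gata2 KD, and 1 higher and 2 lower in Pu.1 KD. Of 6 tested erythroid markers 2 were lower in Gata2 KD and 2 higher in Pu.1 KD, with sums of 9.53 to 10.4 in EV, 7.35 to 11.3 in Gata2 KD and 15.64 to 17.98 in Pu.1 KD. Of 6 megakaryocyte markers 1 was higher and 1 lower in Gata2 KD and 2 were higher and 1 lower in Pu.1 KD, with sums of 60.2 to 78.2, 60.5 to 91.6 and 145.7 to 170.2. Both sums were thus highest in Pu.1 KD, without overlap, where Csf2rb2 and Csf2rb probe 2 were also highest, and their part in those changes was not tested. Of 6 dendritic cell and 4 tested lymphoid markers 0 were called by limma in either knockdown, and 0 had an unadjusted p under 0.05.

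Over the 9 arrays, the named genes whose log2 level followed each member most closely were ranked by Pearson's r among 15478 genes, as a description, since all points share the groups and slides. Csf1r probe 1 was followed by Trem2 (r = 0.998), Rassf4 (0.997) and Hp (0.997). Csf2ra was followed by Ugt1a6b (0.997), Tnfrsf1a (0.996) and Lcn2 (0.996), and Csf3r by Prtn3 (0.997), Emb (0.996) and Ceacam1 (0.995), and of these Lcn2 and Prtn3 are also in the neutrophil marker list. For Csf2rb2 they were Klhl26 (0.990), Daam1 (0.989) and Zbtb25 (0.987), for Il3ra Arhgap31 (0.963), Prkar1b (0.961) and Mybpc3 (0.957), and for Csf2rb probe 1 Mmel1 (0.974), Cyp4a12a (0.970) and Krtap9-1 (0.966).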

How the data were processed

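Cy3-labeled copies of 150 ng total RNA per sample were read on 9 Agilent 4x44K mouse arrays, 3 per group, with groups taken from the sample labels. The authors deposited the scanner output of each array (Agilent Feature Extraction 10.1.1.1, per the file headers), whose processed intensity is background-subtracted and not normalized between arrays. They also deposited a table of log2 values, which correlated at 0.980 to 0.988 with the log2 processed intensity and had column medians of 7.00 to 7.05. Its scale is log2, its exact centring is not stated, and it served as an alternative.

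Levels are the log2 processed intensity minus the array's 75th percentile. Control spots were dropped, outlier-flagged spots (47 to 96 per array) were set to missing and spots of a probe were averaged. Probes well above background on at least 3 of 9 arrays, with at least 2 values per group, were tested (36585 of 41174). Probe accessions were looked up in a RefSeq table (GRCm38.p6), which named 23374 probes (16535 genes, 15808 tested). A gene in a list is represented by its brightest tested probe. Accessions outside that table stayed unnamed.

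Group means were contrasted in limma 3.58.1 (R 4.3.3) over all 9 arrays, two-sided, and p-values were adjusted by Benjamini-Hochberg over every probe tested. Within-array differences used exact permutation tests. The text names all member probes, Gata2, Spi1, at most the 4 largest called changes per list and comparison, and the 3 genes most like each member. Stat5b, Jak2 in Gata2 KD and the uncalled ligands were added after their values were seen. Some genes of the lists are counted but not reported here by name. The members and lists were chosen with earlier results of these data known. Deviations from group means correlated from -0.552 to 0.652 for arrays of the same number and from -0.0408 to 0.719 for arrays of the same slide. Most arrays of the same number lay on different slides, and the pair at 0.652 shared a slide. Slide differences could thus hide a pairing by number, so whether equal numbers mark matched samples was not settled. Alternatives were the replicate number and the slide as blocks, normexp (offset 50) on the median signal, quantile and median scaling, other filters on dim or flagged spots, the deposited log2 values, trend and robust settings in eBayes, a fit of only the groups compared and each array left out.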

Additional observations from a re-analysis of the deposited data

How the results depend on the processing

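Csf1r probes 1 and 2, Csf2ra and Csf3r in Gata2 KD against EV and against Pu.1 KD, and Csf2rb2 in Gata2 KD against Pu.1 KD, kept their direction and their call under all 20 alternatives. Their changes against EV ran from 4.13 to 4.73, 2.70 to 3.42, 2.46 to 2.66 and 2.31 to 3.26, and against Pu.1 KD from 3.97 to 4.35, 2.74 to 3.41, 2.89 to 3.02 and 2.83 to 4.66. In Pu.1 KD against EV, 2 member probes were called, and 1 was called with the replicate block, slide as a block, normexp, quantile normalization, no filter on dim probes or only the groups compared, 0 with scaling to the median, and 1 to 2 without 1 array each. The replicate block, whose numbers may or may not mark matched samples, ended the calls of Csf2rb2 in Gata2 KD (limma, adjusted p = 0.127) and Csf2rb probe 2 in Pu.1 KD (0.0584), both against EV. In Gata2 KD against Pu.1 KD, Csf2rb probe 2 was called with normexp (0.0292), trend and robust settings (0.0395), the deposited values (0.0285) and without EV replicate 3 (0.0498), and with the deposited values Csf2rb2 was called in Pu.1 KD against EV (0.0453). Changes near 0 crossed it. Csf2rb probe 1 in Gata2 KD against EV was -0.0159 with normexp and -0.169 to 0.194 without 1 array each. Against EV in Pu.1 KD, Csf1r probe 2 was -0.0423 with normexp, -0.0953 with the deposited values and -0.109 to 0.0951 without 1 array each, Csf1r probe 3 was 0.0183, 0.0270 and -0.236 to 0.278 in the same order, and Il3ra was 0.00013 with scaling to the median, 0.00667 with the deposited values and -0.156 to 0.0572 without 1 array each. Over all probes, 1902 were called in Gata2 KD against EV (57.0% higher), 1172 with the replicate block, 2886 with slide as a block, 1203 with scaling to the median (69.7% higher), 1114 with only the groups compared and 1072 to 1700 without 1 array each. In Pu.1 KD against EV 986 were called, and 234, 1875, 377 and 223 under those settings, 1575 with trend and robust settings, 1785 with the deposited values and 281 to 824 without 1 array each. In Gata2 KD against Pu.1 KD 3524 were called, 2259 with scaling to the median and 2206 to 3932 without 1 array each. The causes were not tested.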
